A study of Mus musculus with 9 samples.

Results

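The Notch pathway and secretory fate genes described here are Notch1, Notch2, Jag1, Dll1, Dll4, Hes1, Hes6, Atoh1, Neurog3 and Gfi1 of the mouse jejunum. The members were matched by name, as the array probes whose gene symbol equals one of these names, and the rule uses no measured value. They are 10 of the 15676 genes and 11 of the 17305 named probes on each array, and Notch1 alone had more than 1 probe. The data are 9 single-colour oligonucleotide arrays, each hybridised with RNA from the jejunum of a single male OF1 mouse, an outbred stock, at an age of 7 weeks. The mice belonged to generation 3 of a feeding trial, and 3 came from the animals kept on feed B throughout, 3 from those on feed K and 3 from those on feed G. All mice shared a light cycle of 12 h and free access to feed, until food was withheld for 3 h before sampling. An outbred stock differs in genotype between animals. What the letters B, K and G stand for is not given in the sources used here, so that no feed was taken as a control, and the time of day of sampling was not randomized.

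Notch signalling is a short-range signal between touching cells. Ligands of the Jagged and Delta-like families on one cell bind Notch receptors on its neighbour, the receptor is cut by gamma-secretase, and the freed intracellular domain enters the nucleus and, with the DNA-binding protein Rbpj, switches on targets such as Hes1. In the crypts of the intestine, Hes1 represses Atoh1, so that cells that receive the signal become absorptive enterocytes, and cells that escape it keep Atoh1 and enter the secretory lineages of goblet, Paneth, enteroendocrine and tuft cells. Neurog3 then directs progenitors to the enteroendocrine fate, and Gfi1 favours goblet and Paneth cells over it. Because a piece of whole jejunum was measured, fewer cells of a type and less RNA per cell cannot be told apart.

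The share of probes detected, with signal 3 or more times its noise, was between 33.7% and 48.1% per array, and it was lowest in mouse 8 of feed B. Levels are log2 of quantile-normalized signal, on which a difference of 1 is a doubling. The genes of absorptive cells Fabp2 and Apoa1 were detected on all 9 arrays. No probe matched the listed Alpi by symbol or accession, and Akp3, an alkaline phosphatase gene matched as its synonym, was detected on no array. Fabp6, a bile acid binding protein of the ileum, was detected on 8 arrays and reached from a log2 signal of 4.67 in mouse 8 of feed B to 19.51 in mouse 11 of feed G. It was 17.84 in mouse 10 and 15.81 in mouse 7 of feed B, and 8.10 to 12.19 in the other mice. Slc10a2, the ileal bile acid transporter, was highest in mouse 11 of feed G (12.66) and mouse 10 of feed B (12.05), and Fabp1, a fatty acid binding protein of the proximal and middle small intestine, was lowest in mouse 11 of feed G (16.40) and mouse 10 of feed B (17.50), against 17.85 to 19.35 in the other mice. By these genes mouse 11 of feed G and mouse 10 of feed B stand apart. Mouse 7 of feed B was also high in Fabp6, and mouse 8 of feed B was lowest in Fabp6 and highest in Fabp1. Mice 7 and 8 of feed B stand apart by their low shares of detected probes as well.

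Promoter sequences were read from RefSeq for 9 of the 10 members, with 12 promoters of 300 bases each in build GRCm38.p6, reaching from 250 bases before to 50 bases after a start site. Hes1 had no promoter in the set read, so that it was not searched for motifs. The 4 below belong to the other members detected on all 9 arrays and to Dll4, which had the largest differences between feeds, and capitals mark the motifs CACNAG, a site type bound by Hes proteins, and CAGCTG, an E box of the kind bound by Atoh1, found on either strand. Where a gene has more than 1 start site, the window with more of these motifs is shown: the first Dll1 window holds none, and the first Hes6 window holds 1 CAGCTG. Dll1 is shown at its second start site, chr17:15376883-15377182 on the minus strand, Dll4 at chr2:119325534-119325833 on the plus strand, Hes6 at its second start site, chr1:91413173-91413472 on the minus strand, and Atoh1 at chr6:64728875-64729174 on the plus strand.
Dll1: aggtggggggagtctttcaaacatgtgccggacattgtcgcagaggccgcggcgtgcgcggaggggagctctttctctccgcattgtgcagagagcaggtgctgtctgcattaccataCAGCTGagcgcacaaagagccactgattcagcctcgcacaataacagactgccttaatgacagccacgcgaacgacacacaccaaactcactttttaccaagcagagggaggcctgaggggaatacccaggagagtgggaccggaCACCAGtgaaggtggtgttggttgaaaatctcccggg
Dll4: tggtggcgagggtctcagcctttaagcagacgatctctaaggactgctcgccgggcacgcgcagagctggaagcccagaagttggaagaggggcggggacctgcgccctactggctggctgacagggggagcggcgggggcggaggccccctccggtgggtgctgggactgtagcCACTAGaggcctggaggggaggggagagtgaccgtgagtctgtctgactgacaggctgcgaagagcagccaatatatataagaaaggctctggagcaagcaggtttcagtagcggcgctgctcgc
Hes6: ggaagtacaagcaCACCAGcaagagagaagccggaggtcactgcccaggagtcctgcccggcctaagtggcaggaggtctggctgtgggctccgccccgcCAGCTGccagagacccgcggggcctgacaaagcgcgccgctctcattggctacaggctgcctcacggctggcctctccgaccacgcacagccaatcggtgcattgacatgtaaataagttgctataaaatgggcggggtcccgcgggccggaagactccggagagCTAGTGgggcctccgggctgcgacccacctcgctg
Atoh1: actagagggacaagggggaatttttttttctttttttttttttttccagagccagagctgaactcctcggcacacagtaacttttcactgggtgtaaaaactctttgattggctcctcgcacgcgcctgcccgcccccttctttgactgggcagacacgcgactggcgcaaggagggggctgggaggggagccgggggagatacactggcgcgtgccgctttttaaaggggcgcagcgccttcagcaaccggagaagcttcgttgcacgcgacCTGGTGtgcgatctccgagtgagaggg

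CACNAG stood in 6 of the 12 member promoters and in 42.5% of the 32851 promoters of the same length in the genome. CAGCTG stood in 5 of the 12, compared with 16.3% of all promoters. TGGGAA, the core of the motif bound by Rbpj, stood in none of the 12, which do not include Hes1, and in 25.6% of all promoters. The Hes6 window held CACNAG at 2 positions and CAGCTG at 1, the Dll1 window held 1 of each, and the windows of Atoh1 and Dll4 held 1 CACNAG each. In the 12 windows, motifs shared bases only in the Notch1 promoter. A match is a run of letters and does not show binding, and a window without one says nothing about sites elsewhere.

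The members differed first in whether they could be measured. Hes1, Hes6, Dll1 and Atoh1 were detected on all 9 arrays. Jag1 and Dll4 were each detected on 6, Neurog3 on 4, Notch2 on 2 and Gfi1 on 1, and neither Notch1 probe was detected on any array. For the feed comparison, genes had to be detected on at least 3 arrays, and 7 members passed, all but Notch1, Notch2 and Gfi1. The signal of a probe also depends on the probe, so that the values of different genes are not read as an order of expression.

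**Figure D1:**
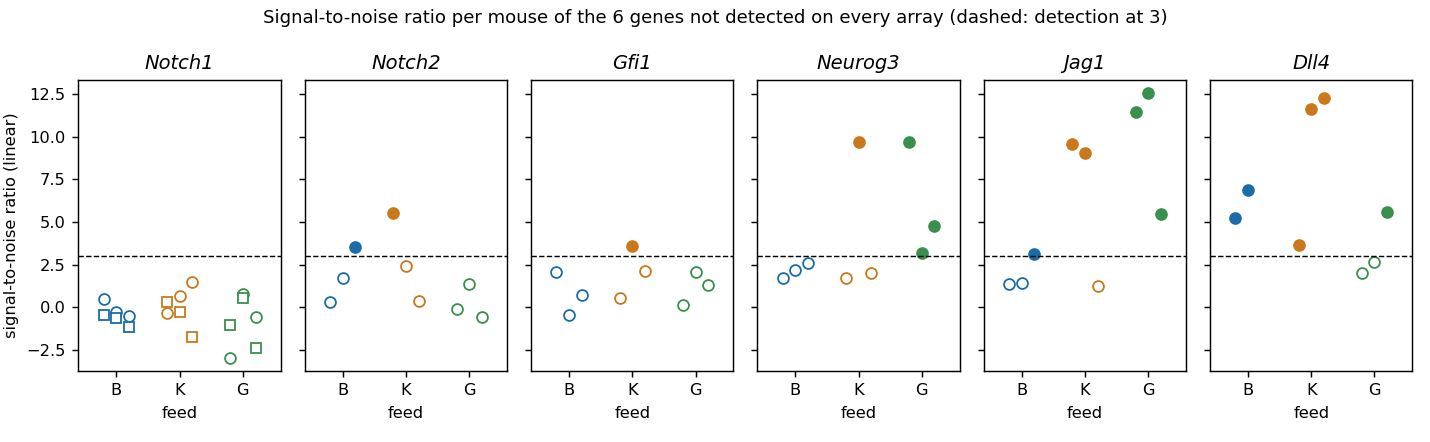
Signal-to-noise ratio (linear) by feed for the 6 members not detected on every array, with 1 point per mouse and probe (squares for the second Notch1 probe), filled points where detected, and a dashed line at the limit of 3. Both Notch1 probes lie below the limit throughout, at up to 1.49, Jag1 reaches 12.58 on feed G and Dll4 12.26 on feed K, and the failed Dll4 spot is not drawn.

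The receptors were at or below detection. Notch1, a receptor that maintains crypt progenitors, had signal-to-noise ratios from -2.96 to 1.49 over its 2 probes and 9 arrays, so that its log2 signals are not well above background and have no order. Notch2, the other receptor of crypt progenitors, had a log2 signal of 6.94, 7.63 and 7.61 in mice 7, 8 and 10 of feed B, of 7.54, 7.58 and 6.08 in mice 1, 3 and 4 of feed K, and of 6.50, 6.58 and 5.43 in mice 4, 8 and 11 of feed G. It was detected only in mouse 10 of feed B and in mouse 1 of feed K, with ratios of 3.52 and 5.51. On feed G, Notch2 was not well above background in any mouse. With 1 measured array in each of feeds B and K, no fold is given.

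Among the ligands, Dll1 was detected in every mouse, Jag1 in 1, 2 and 3 mice of feeds B, K and G, and Dll4 in 2, 3 and 1. Dll1, a ligand that secretory progenitors present to their neighbours, had a log2 signal of 9.47, 10.32 and 9.57 in mice 7, 8 and 10 of feed B, of 9.89, 9.79 and 10.11 in mice 1, 3 and 4 of feed K, and of 9.65, 9.51 and 8.82 in mice 4, 8 and 11 of feed G. All mice of feed G lay below all mice of feed K, and feed B spanned both. The mean Dll1 level was 9.79 ± 0.47, 9.93 ± 0.17 and 9.33 ± 0.44 for feeds B, K and G (SD, n = 3 each). Dll1 on feed G differed from feed K by -0.60 (log2, SE 0.31, 95% interval -1.30 to 0.10), which did not pass the test (limma adjusted p = 0.96), and the exact permutation test of F over the 3 feeds gave p = 0.229. Without mouse 11 of feed G, which had the lowest Dll1 level, the difference was -0.35 (limma adjusted p = 0.985).

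Dll4, a ligand of endothelial tip cells that crypt cells also present, could not be read in mouse 7 of feed B, where the spot failed. Its log2 signal was 8.23 and 8.68 in mice 8 and 10 of feed B, 8.10, 8.16 and 8.82 in mice 1, 3 and 4 of feed K, and 6.82, 6.62 and 7.47 in mice 4, 8 and 11 of feed G. The feed G mice lay below every other mouse, and only mouse 11 of feed G was above the detection limit there, with a ratio of 5.58. The mean Dll4 level was 8.45 ± 0.32 in the 2 measured mice of feed B, and 8.36 ± 0.40 and 6.97 ± 0.45 for feeds K and G (SD, n = 3 each). The difference of feed G from feed B was -1.49 (log2, SE 0.35, 95% interval -2.32 to -0.66; limma adjusted p = 0.472), and that of feed G from feed K was -1.39 (SE 0.32, 95% interval -2.14 to -0.65; limma adjusted p = 0.96). Both differences missed the threshold after adjustment over the 9654 genes tested, and the exact permutation test of F over the 560 splits of the 8 measured mice gave p = 0.0393 before any adjustment. With the failed spot of mouse 7 kept at its reading, the difference of feed G from feed B was -0.55 (limma adjusted p = 0.904), and neither difference of Dll4 then passed an unadjusted p of 0.05. The difference of feed G from feed B was -1.26 without mouse 10 of feed B and -1.85 without mice 7 and 8 of feed B, and that from feed K was -1.61 without mouse 11 of feed G (limma adjusted p of 0.384, 0.539 and 0.985).

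Endothelial cells are a known source of Dll4. All 12 listed endothelial markers were matched, 3 were detected on all 9 arrays and none on no array. Their mean level was 9.74 to 10.14 on feed B, 9.48 to 10.05 on feed K and 10.03 to 10.30 on feed G. Of the 10 endothelial markers tested, 3 passed the F test at an unadjusted limma p under 0.05, beside 5.37% of all genes. At that limit 2 were higher on feed K and 2 on feed G than on feed B (beside 6.31% and 5.74% of all genes, both directions), 1 was lower on feed G than on feed K (beside 4.54%), and none passed after adjustment. The 3 that passed the F test were Tek, Tie1 and Egfl7, detected in 0, 1 and 1 mice of feed B. These genes were detected in 2, 2 and 3 mice of feed K and in 2, 1 and 3 of feed G. The part of endothelial cells in the Dll4 values was not tested.

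Jag1, a ligand of the other family, had a log2 signal of 6.98, 7.36 and 7.71 in mice 7, 8 and 10 of feed B, of 8.26, 8.20 and 6.21 in mice 1, 3 and 4 of feed K, and of 8.77, 8.34 and 7.56 in mice 4, 8 and 11 of feed G. The feeds overlapped, and feed K held both high and low mice. Jag1 was above detection in 1 mouse of feed B, 2 of feed K and all 3 of feed G. The difference of feed G from feed B was 0.87 (log2, SE 0.57, 95% interval -0.44 to 2.18; limma adjusted p = 0.888), within the spread between mice.

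**Figure D2:**
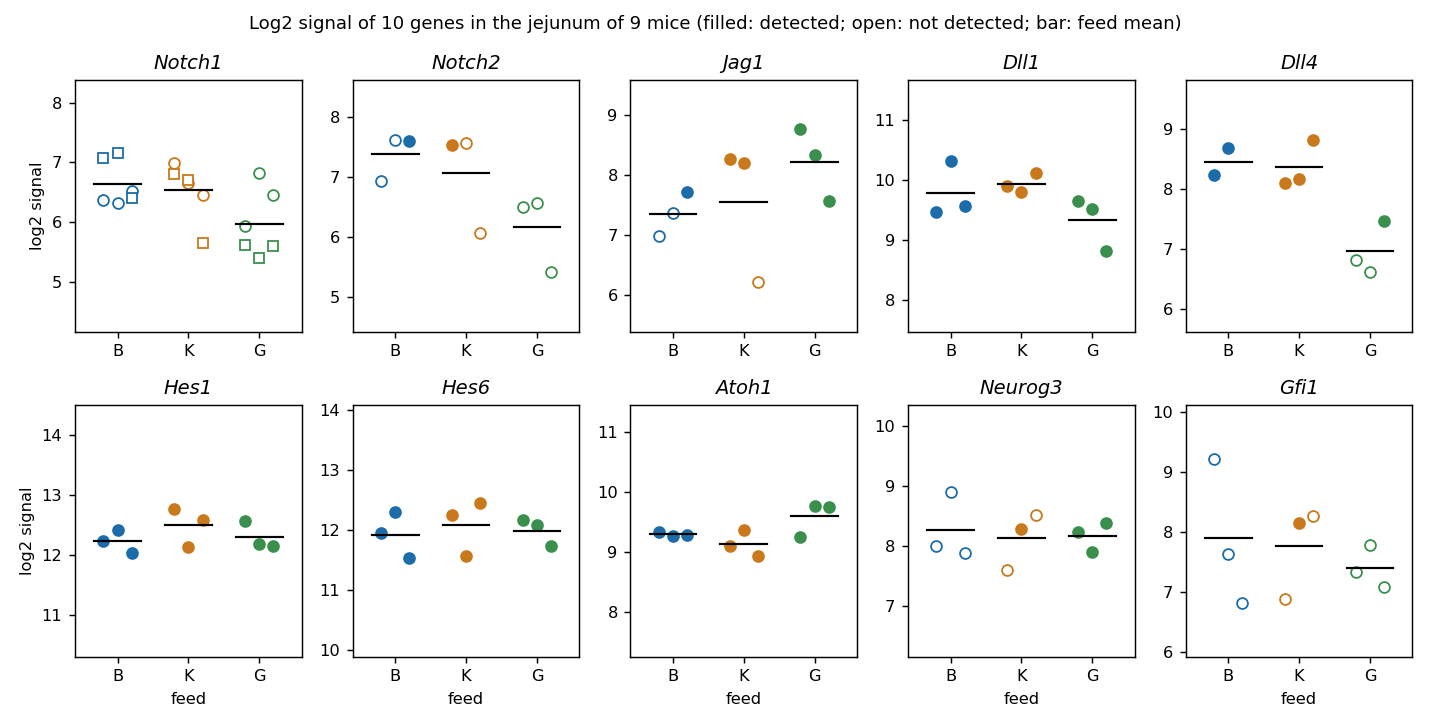
Log2 of quantile-normalized signal of each member by mouse (points) and feed, with bars for the feed means and filled points where the probe was detected (squares for the second Notch1 probe). The 3 feed G mice sit at 6.62 to 7.47 for Dll4, below the other measured mice at 8.10 to 8.82, while Hes1 overlaps between all feeds at 12.03 to 12.76.

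Hes1, the repressor that Notch activity switches on, and its relative Hes6, which is found in secretory progenitors and can counteract Hes1, overlapped between the feeds after quantile normalization. Hes1 had a log2 signal of 12.23, 12.41 and 12.03 in mice 7, 8 and 10 of feed B, of 12.76, 12.13 and 12.57 in mice 1, 3 and 4 of feed K, and of 12.56, 12.18 and 12.15 in mice 4, 8 and 11 of feed G. Hes6 had a log2 signal of 11.95, 12.29 and 11.52 in the same mice of feed B, of 12.25, 11.56 and 12.44 on feed K, and of 12.16, 12.08 and 11.72 on feed G. Feed K held both the highest and nearly the lowest mouse of each gene. The Hes1 difference of feed K from feed B was 0.26 (log2, SE 0.23, 95% interval -0.26 to 0.79), and over the 3 feeds the F test gave an adjusted limma p of 0.914. The exact permutation test of F over the 280 splits of the mice gave p = 0.475 for Hes1 and p = 0.832 for Hes6. With arrays scaled to their medians, the median of all genes rose by 0.41 on feed K and 0.53 on feed G against feed B. All feed B mice then lay below the others for both genes, at 11.70 to 12.01 for Hes1 and 11.43 to 11.65 for Hes6. The share of all genes that separate likewise under this scaling was not counted. The Hes1 differences were then 0.71 for feed K and 0.63 for feed G against feed B (limma adjusted p of 0.385 and 0.266), or 0.30 and 0.10 relative to the shift of all genes. The Hes6 differences were 0.61 and 0.63, or 0.20 and 0.10 relative to that shift.

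Atoh1, the factor that commits crypt cells to secretion, was high in 2 mice of feed G. Its log2 signal was 9.33, 9.27 and 9.29 in mice 7, 8 and 10 of feed B, 9.10, 9.37 and 8.94 in mice 1, 3 and 4 of feed K, and 9.26, 9.77 and 9.76 in mice 4, 8 and 11 of feed G. Mice 8 and 11 of feed G lay above all others, and mouse 4 of feed G lay among the mice of feeds B and K. The difference of feed G from feed K was 0.46 (log2, SE 0.21, 95% interval -0.02 to 0.94; limma adjusted p = 0.96). Without mouse 11 of feed G it was 0.37 (limma adjusted p = 0.985). The exact permutation test of F over the 3 feeds gave p = 0.118 for Atoh1.

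Neurog3, the factor of enteroendocrine progenitors, had a log2 signal of 8.00, 8.90 and 7.87 in mice 7, 8 and 10 of feed B, of 7.59, 8.28 and 8.51 in mice 1, 3 and 4 of feed K, and of 8.22, 7.89 and 8.37 in mice 4, 8 and 11 of feed G. It was detected in all mice of feed G, in 1 of feed K and in none of feed B, yet the levels overlapped. Its feed differences were between -0.13 and 0.03 (SE 0.35 each), and the exact permutation test of F gave p = 0.936. Gfi1, a repressor downstream of Atoh1, was detected only in mouse 3 of feed K, with a ratio of 3.61 and a log2 signal of 8.16, below the 9.22 of an undetected spot in mouse 7 of feed B.

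No member passed the adjusted test in any comparison, and neither did any other gene (0% of 9654). At an unadjusted limma p under 0.05, the F test over the 3 feeds called 1 of the 7 members tested, Dll4, beside 5.37% of all genes. No member was called between feeds K and B, beside 6.31% of all genes. Dll4 was the 1 member called between feeds G and B, beside 5.74%, and between feeds G and K, beside 4.54%. Dll1 and Dll4, both lower on feed G, were the 2 of 7 members whose mice did not overlap between feeds G and K, beside 13.6% of all genes. No member was free of overlap between feeds K and B or between feeds G and B, among the 6 members read in all those mice, beside 9.95% and 10.9% of all genes. Feeds K and G were each compared with the same feed B mice, so that these comparisons share samples. The median difference over the 7 members was 0.15 for feed K minus B, 0.06 for G minus B and -0.10 for G minus K, beside 0.05, 0.06 and -0.01 over all genes tested.

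**Figure D3:**
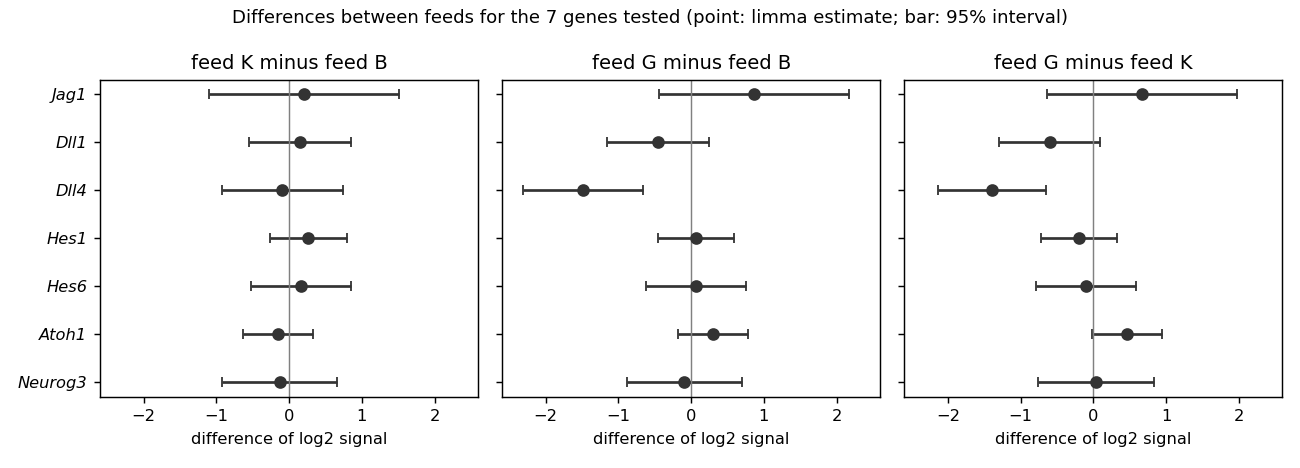
Log2 differences between feeds for the 7 members tested, with points for the limma estimate, bars for its 95% interval and a line at 0. The intervals of Dll4 for feed G against B (-2.32 to -0.66) and against K (-2.14 to -0.65) exclude 0 before adjustment, and no other interval does.

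Across the 9 mice, the spread of the 4 members detected throughout was near that of other genes. Hes1 ranged over 1.66-fold, Atoh1 over 1.78-fold, Hes6 over 1.89-fold and Dll1 over 2.82-fold. The SD of the log2 level was 0.25 for Hes1, 0.27 for Atoh1, 0.33 for Hes6 and 0.43 for Dll1, with a median of 0.30, beside a median of 0.29 over all 5888 genes detected on all 9 arrays. The SD of Hes1 was at percentile 37.8 of those genes and the SD of Dll1 at percentile 75.9. With arrays scaled to their medians, the SD was 0.38 for Hes1, 0.55 for Atoh1, 0.34 for Hes6 and 0.38 for Dll1, beside a median of 0.44 over all genes, so that the order of the members by spread rests on the scaling. With feed means subtracted after quantile normalization, the SD was 0.25 for Hes1, 0.21 for Atoh1, 0.37 for Hes6 and 0.38 for Dll1. The tested members near the detection limit, Jag1, Dll4 and Neurog3, each had their lowest level in a mouse where they were not detected, so that no range is given for them.

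The levels of Hes1 and Hes6 were correlated from mouse to mouse. Over the 9 mice, their log2 levels had a Pearson r of 0.83 (exact permutation p = 0.00786, adjusted p = 0.0471 over the 6 pairs of members detected on all arrays) and a Spearman rho of 0.90 (exact permutation p = 0.00203, adjusted p = 0.0122). Within feeds, with the feed means subtracted, r was 0.85, and without mice 1 and 4 of feed K, the farthest from the median of Hes1, r was 0.82. Leaving out each mouse in turn, r was between 0.78 and 0.88, but the adjusted exact permutation p was above 0.05 in 6 of the 9 cases, without mouse 7 or 10 of feed B, 3 or 4 of feed K, or 4 or 11 of feed G, and was then 0.0625 to 0.0958. The adjusted exact permutation p was also above 0.05 with the series table (0.087), with failed spots kept (0.0512) and with dim spots left out (0.064), at an r of 0.77 to 0.82. With arrays scaled to their medians r was 0.87, but the median r over 5887 other genes was then 0.66 for Hes1 and 0.48 for Hes6, against 0.15 and 0.14 after quantile normalization.

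None of the other 5 pairs passed. Dll1 and Atoh1 ran in opposite directions, with r = -0.73 (exact permutation p = 0.0245, adjusted p = 0.0734) and rho = -0.72 (adjusted permutation p = 0.0707). Within feeds that r was -0.52, and without mouse 11 of feed G, where Dll1 was lowest, it was -0.56 (exact permutation p = 0.156), while without both mouse 11 of feed G and mouse 8 of feed B, the farthest from the median of Dll1, it was -0.75. Hes1 and Atoh1, the repressor and its target in the crypt, had r = -0.66 (adjusted exact permutation p = 0.117) and rho = -0.75 (adjusted permutation p = 0.0707). Within feeds that r was -0.76, and without mice 1 and 4 of feed K it was -0.39. The r of Dll1 was 0.59 with Hes6 and 0.54 with Hes1, and that of Hes6 with Atoh1 was -0.48 (adjusted exact permutation p of 0.136, 0.163 and 0.197). Where arrays were brought to a common median rather than quantile normalized, the r of Dll1 and Atoh1 was 0.03 and that of Hes1 and Atoh1 0.47, so that the sign of both pairs rests on the scaling.

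**Figure D4:**
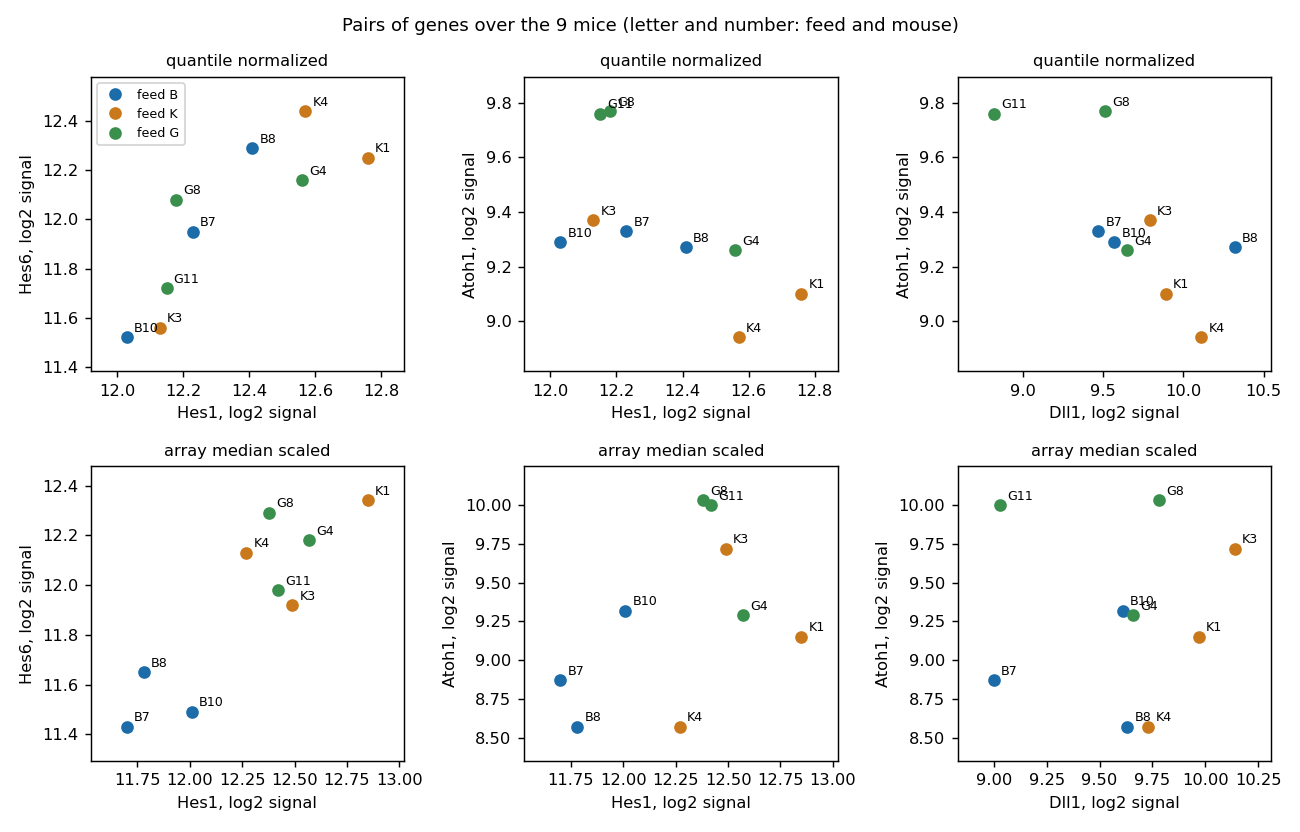
Log2 signal of 3 pairs of members in the 9 mice, 1 point per mouse with the feed by colour, after quantile normalization (upper panels) and with arrays scaled to their medians (lower panels). Hes1 and Hes6 rise together in the upper (r = 0.83) and lower panel (0.87, with a median r of 0.66 between Hes1 and all other genes), whereas the falling pattern of Dll1 and Atoh1 (r = -0.73) and of Hes1 and Atoh1 (r = -0.66) is gone under median scaling (0.03 and 0.47).

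Marker genes of the cell types that these factors direct gave no relation past the threshold in the 6 comparisons made. Hes6 and the enteroendocrine markers had r = -0.60 and rho = -0.65 (exact permutation p = 0.0876 for r, adjusted p = 0.525), and without mice 10 of feed B and 3 of feed K r was -0.30. Atoh1 and the goblet markers had r = 0.16 and rho = 0.12 (adjusted exact permutation p = 0.934 for r). The r of Dll1 with the goblet markers was -0.20, and that of Hes1 was -0.03 with crypt stem cell markers and 0.04 with proliferation genes. Atoh1 and the Paneth markers had r = -0.36 and rho = 0.02, and without mouse 11 of feed G r was 0.29. The goblet markers, 7 of them detected on all 9 arrays, had a mean level of 14.68 to 14.76 on feed B, 14.63 to 14.69 on feed K and 14.60 to 14.78 on feed G. The Paneth markers, 9 detected on all arrays, had a mean level of 15.6 to 17.2 in 8 mice and of 14.4 in mouse 11 of feed G. Under median scaling, Atoh1 and the goblet markers had r = 0.94 (adjusted exact permutation p = 0.00362), but with that scaling the median r of Atoh1 with all other 5887 genes was 0.68, and it was -0.11 after quantile normalization.

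The gene most like Dll1 over the 9 mice was Acbd4 (r = 0.99), followed by 9130210N20Rik and Fabp1 (both 0.97). The genes most like Hes1 were BC003251 (0.96), Ndufs7 and Ndufv1 (both 0.93), the latter being subunits of mitochondrial complex I. Those most like Hes6 were Poldip2 (0.96), Dnchc1 and 0610039D01Rik (both 0.95), and those most like Atoh1 were Dsg2 (0.96), which encodes a desmosomal cadherin, 1700029I01Rik and Nbr1 (both 0.89). These are the highest values of r among 5887 genes and serve as a description. Fabp1 and Dll1 were both highest in mouse 8 of feed B and lowest in mouse 11 of feed G, the mice with the lowest and the highest Fabp6 signal, and the part of the position of the tissue piece in the Dll1 values was not tested.

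The wider pathway gave no gene past the adjusted test. Lists of 92 other genes of the pathway and of secretory fate had 88 genes matched to probes, of which 68 were tested and 31 were detected on all 9 arrays, and Dtx1 belongs to 2 of the lists. Of the 68, 5 passed the F test at an unadjusted limma p under 0.05 (7.35%, beside 5.37% of all genes). At that limit 5 genes were higher and 2 lower on feed K than on B, 3 were higher and 1 lower on G than on B, and 2 were higher on G than on K. Of all 9654 genes, 419 were higher and 190 lower in the first of these comparisons, 371 and 183 in the second, and 207 and 231 in the third. The median difference of the 68 genes was 0.05 for feed K minus B, 0.11 for G minus B and 0.02 for G minus K.

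By role, the 5 tested receptors and ligands other than the members had medians of 0.44 for feed K minus B, 0.99 for G minus B and 0.38 for G minus K. Notch3, Jag2 and Dlk2 were detected in at most 1 mouse of feed B. They passed the detection filter mainly through feeds K and G, where they were higher, so that these medians support nothing. Notch4, the 1 gene of the list detected in every mouse, lay below 0 for both differences from feed B and at 0.02 for G minus K. Notch3, a receptor of vascular smooth muscle and pericytes, had a log2 signal of 5.97, 6.20 and 6.76 on feed B, of 7.38, 7.48 and 7.31 on feed K and of 7.61, 7.99 and 7.71 on feed G. Every mouse of feed B lay below every mouse of feeds K and G, and Notch3 was detected in none of feed B, 2 of feed K and 3 of feed G. The mean log2 signal was 6.31 on feed B, where Notch3 was not above background, 7.39 on feed K and 7.77 on feed G. Notch3 entered the test only through feeds K and G (limma adjusted p = 0.693 for K and 0.375 for G against B). No fold over feed B is given. Egfl9, now named Dlk2, a membrane protein of the Delta-like kind, differed by 0.92 between feeds K and B and by 0.99 between G and B (limma F test, adjusted p = 0.897). Notch4, an endothelial receptor, was detected in every mouse and differed by -0.24 and -0.22.

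The 14 tested genes of receptor processing had medians of 0.13, 0.14 and -0.07 for the 3 differences. Pofut1, which adds the fucose that receptors need for ligand binding, had a log2 signal of 6.16, 5.33 and 5.43 on feed B, of 6.20, 7.12 and 6.57 on feed K and of 7.18, 6.60 and 7.77 on feed G. It was detected in none of feed B, 1 of feed K and 3 of feed G, and entered the test through feeds K and G alone. No fold is given over feed B, where Pofut1 was not above background (limma adjusted p = 0.472 for G minus B). Furin and Adam10, which cut the receptor, were detected in every mouse, with differences of at most 0.28 in size.

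Notch3, Pofut1 and Dlk2 are dim genes that were detected least on feed B, the feed of the 2 arrays with the lowest shares of detected probes, and the part of detection in their values was not tested. Without mice 7 and 8 of feed B, 1 feed B mouse remained, in which Notch3 and Pofut1 were not detected, so that no difference from it is given for them. The difference of feed G from that mouse was 0.52 for Dlk2. The nuclear factors, 11 tested, had medians of -0.02, -0.09 and -0.13. Ncor1, a corepressor at Notch targets, was detected in every mouse, with a log2 signal of 12.79, 12.85 and 12.64 on feed B, of 12.51, 12.30 and 12.19 on feed K and of 12.24, 12.26 and 12.12 on feed G. All mice of feed B lay above those of feeds K and G, with differences of -0.43 for K and -0.55 for G (SE 0.17 each; limma F test, adjusted p = 0.897), and of -0.30 and -0.43 without mice 7 and 8 of feed B. The other factors detected throughout included Hdac1, Hdac2 and the corepressor gene Cir1, listed as 1700023B02Rik, whose SD over the mice was 0.09.

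The remaining lists gave 1 gene, Creb3l1, at an unadjusted p under 0.05 of the limma F test. Among 7 tested targets, with medians of -0.03, 0.17 and 0.07, Hes2, Hes7, Id1 and Id2 were among those detected in every mouse, while Hey1, Heyl and Id3 were detected in none. The 5 tested Tle and Aes corepressors, partners of Hes1, had medians of 0.33, 0.11 and -0.16, and the 9 genes of ligand endocytosis and receptor turnover, among them Numb and Dtx3, had medians of 0.10, 0.27 and 0.23. The 18 tested secretory fate factors had medians of -0.07, 0.14 and 0.23. Creb3l1, a secretory pathway factor, had a log2 signal of 9.04, 8.95 and 9.32 on feed B, of 8.59, 8.54 and 7.62 on feed K and of 8.89, 8.80 and 9.25 on feed G. It was lowest on feed K, by -0.86 against feed B (SE 0.29; limma adjusted p = 0.773). Klf4, a goblet cell factor, Xbp1, Tcf4 and Isl1 were also detected in every mouse.

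**Figure D5:**
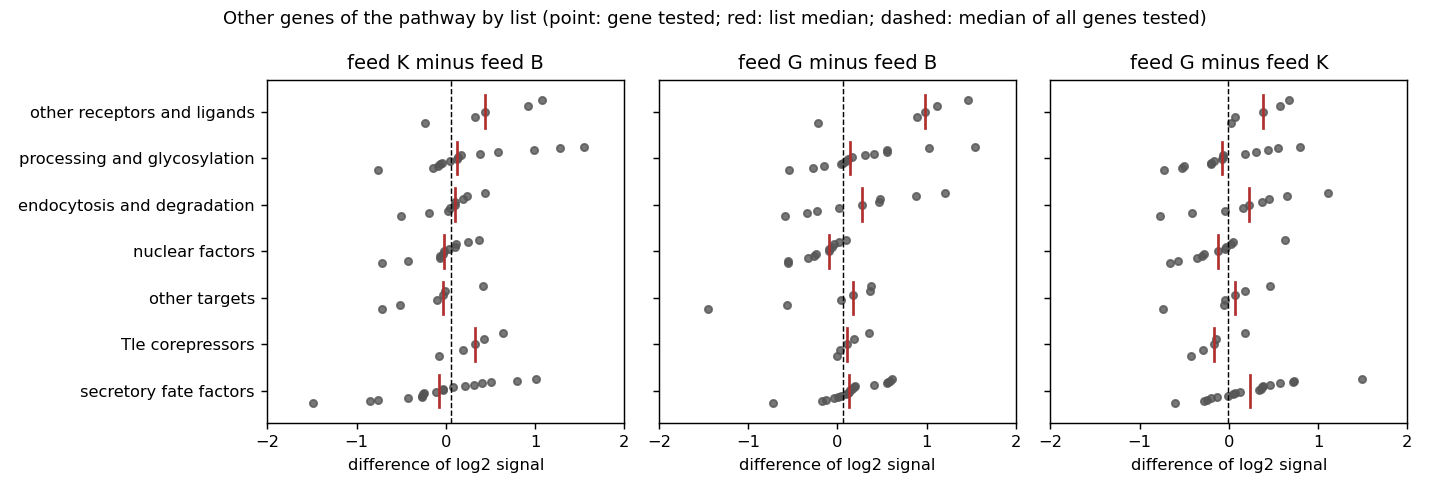
Log2 differences between feeds of the 68 tested genes of the pathway and secretory fate lists (points), by list, with red bars for the list medians and a dashed line for the median of all genes tested. The medians lie between -0.16 and 0.99, the highest being that of the 5 receptors and ligands for feed G minus B, of which 3 were detected in at most 1 feed B mouse.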

How the data were processed

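The authors hybridised jejunal RNA (40 µg, from a 2 cm segment) of 9 mice to Applied Biosystems chemiluminescence arrays. Per array they deposited each spot's signal intensity, corrected for background and spatially normalized, its signal-to-noise score and a quality flag. The deposited table of the series equals the assay-normalized signal and served as an alternative.

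Failed spots (flag above 5000) were dropped. Intensities were quantile normalized with the arithmetic mean and converted to log2, and the probes that share a gene symbol were averaged. Symbols were matched by name, 3 probes by RefSeq accession, and of 252 listed genes 182 matched by symbol, 35 by accession and 15 by synonym. Feeds were compared with limma 3.58.1 (lmFit, eBayes) in R 4.3.3 over 9654 genes detected on at least 3 arrays, with Benjamini-Hochberg adjustment at 0.05. For Notch2, Notch3 and Pofut1, each detected in no mouse of a feed, no fold is given. Correlations used exact two-sided permutation tests (Python 3.11.15, numpy 2.4.6, pandas 2.3.3, scipy 1.17.1). The fits were tested on simulated data with known changes. The number of arrays limits the precision.

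Besides the members, the genes named are the 6 tested pathway genes with the smallest F test p, up to 4 per list by mean signal among those detected on all arrays, markers and the 3 genes most like each member, and 1 of the 6 is not reported here. Although the rule for the members uses no measured value, the members and lists were proposed with earlier results of these data known. Results were recomputed with arrays scaled to a common median, with the series table, with the brightest probe, and with other treatments of failed and dim spots, other detection filters, other tests and leaving out each mouse. Leaving out mice 7 and 8 of feed B together was chosen after seeing the data. The gene table names come from GRCm38.p6.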

Additional observations from a re-analysis of the deposited data

How the results depend on the processing

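No member passed the adjusted test under any alternative. Of the 21 differences between feeds of the 7 members, 8 kept their direction under every alternative: Jag1 and Dll4 for G minus B, Dll1 and Dll4 for G minus K, Hes1 for K minus B and G minus K, and Atoh1 for G minus B and G minus K. Dll4 ran from -1.85 to -0.55 for G minus B and from -1.61 to -1.18 for G minus K. The cause was not tested for the changes below.

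Among all genes, the F test called 3 with spots below a signal-to-noise ratio of 1 left out, 1 among genes detected on all 9 arrays and 1 without moderation. G minus B called 3 and 1 under the first 2 of these settings, and G minus K called 3 with the dim spots left out.

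With median scaling, which moved the median of all genes by 0.41 (K minus B), 0.53 (G minus B) and 0.11 (G minus K), the direction turned for Dll1 G minus B (0.076), Dll4 K minus B (0.093), Hes6 G minus K (0.019), Atoh1 K minus B (0.22) and Neurog3 K minus B (0.16) and G minus B (0.34). Relative to that shift these were -0.45, -0.31, -0.10, -0.18, -0.25 and -0.19. With the series table it turned for Hes6 G minus K (0.062), Atoh1 K minus B (0.10) and Neurog3 G minus B (0.13). With dim spots left out it turned for Dll4 K minus B (0.13), Atoh1 K minus B (0.14) and Neurog3 K minus B (0.17) and G minus B (0.32). With the failed spot kept, Dll4 K minus B was 0.84. Without mice 7 and 8 of feed B, Jag1 K minus B was -0.18, Neurog3 K minus B 0.27 and Neurog3 G minus B 0.31.

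The count of member pairs past the threshold was 0 with the series table, with failed spots kept and with dim spots left out. With median scaling, r was 0.027 for Dll1 and Atoh1, 0.47 for Hes1 and Atoh1, 0.33 for Hes6 and Atoh1, 0.085 for Hes6 and enteroendocrine, 0.10 for Dll1 and goblet, and 0.70 for Hes1 and crypt stem markers, and 1 marker relation passed. With the series table, r was 0.33 for Hes1 and Atoh1, 0.17 for Hes6 and Atoh1 and 0.50 for Hes1 and crypt stem markers, and 1 marker relation passed. With dim spots left out, Hes1 and crypt stem markers had 0.41, and with the brightest probe, Hes1 and proliferation markers had -0.027.

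Leaving out each mouse, the F test called 0 to 3 genes and G minus B 0 to 3, and K minus B 0 to 10, each highest without mouse 10 of feed B. Pairs past the threshold were 0 to 2, 2 without mouse 8 of feed B. K minus B ran from -0.15 to 0.90 for Jag1, -0.013 to 0.41 for Dll1, -0.33 to 0.13 for Dll4, -0.036 to 0.42 for Hes6 and -0.33 to 0.20 for Neurog3; G minus B from -0.064 to 0.16 for Hes1, -0.13 to 0.25 for Hes6 and -0.29 to 0.24 for Neurog3; G minus K from -0.0094 to 1.02 for Jag1, -0.36 to 0.079 for Hes6 and -0.23 to 0.23 for Neurog3. The r of Atoh1 ran from -0.32 to 0.53 with goblet and -0.75 to 0.29 with Paneth markers, that of Dll1 from -0.63 to 0.52 with goblet markers, and that of Hes1 from -0.40 to 0.24 with crypt stem and -0.092 to 0.21 with proliferation markers.

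No paired analysis was possible because each mouse was kept on 1 feed, and a mouse number that recurs in 2 feeds does not name the same animal. A block for slide or scan could not be made, since the array headers used here give neither. With 3 mice per feed the intervals of every tested member but Atoh1 span more than 1 log2 unit. A difference of 1 log2 unit in Jag1 was not detectable even before adjustment. The Dll4 difference of -1.49 for feed G minus B did not pass after adjustment (limma adjusted p = 0.472). Smaller differences in the other members may therefore have been missed as well.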
